A study of Arabidopsis thaliana with 12 samples.

Results

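SPLAYED (SYD) encodes one of the SWI/SNF chromatin-remodelling ATPases of Arabidopsis thaliana, and the libraries described here compare germinating seeds of 2 SYD knockdown lines with a control line in the absence of the hormone abscisic acid (ABA). The comparison uses 6 of the 12 libraries of the series, chosen by their labels: 2 of amiR-HsMYO, which the labels call the WT control, 2 of amiR-SYD-1 and 2 of amiR-SYD-2. The lines are called HsMYO, SYD1 and SYD2 below, and amiR stands for an artificial microRNA, a designed small RNA that cuts transcripts matching it. Whole seeds were sown on MS medium with 0.002% ethanol, the solvent of the ABA treatment, stratified for 3 days in darkness at 4 °C and given another 24 h in a cycle of 16 h light and 8 h dark. The other 6 libraries are the same lines on 2 µM (±)-ABA and are used to set a difference beside the same difference on the hormone. They also enter the filter on low counts and the shared estimate of spread behind the p-values. The labels call the 2 libraries of a group biological replicates and do not say whether they came from separate seed batches, so p-values measure the spread between these libraries. There was 1 control line, so that an effect of SYD loss and any other difference in genetic background between HsMYO and the SYD lines cannot be told apart, and the promoter that drives the artificial microRNAs is not given in the sources used here.

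SWI/SNF complexes use ATP to slide or evict nucleosomes, which opens or closes DNA to transcription factors. Arabidopsis has 4 such ATPases, SYD, BRM, CHR12 and CHR23, and SYD and BRM are known for roles in the shoot meristem, flower identity and hormone responses. A germinating seed turns from stored, ABA-maintained dormancy to growth: late embryogenesis abundant (LEA) proteins and storage proteins decline, reserves are burnt, the radicle elongates, cells re-enter the cycle and chloroplasts are assembled.

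SYD transcript (AT2G28290, TAIR10.1 chromosome 2, 12056213 to 12073279) was reduced and not lost. Its level was 185 and 178 CPM (counts scaled to library size with TMM factors) in the HsMYO libraries, 101 and 108 in SYD1 and 98.6 and 108 in SYD2. All 4 libraries of the knockdown lines lay below both controls, and the fall was 1.74-fold in SYD1 and 1.76-fold in SYD2. The log2 fold change of the mean of both lines was -0.81 ± 0.08, with an adjusted p of 1.4e-06 in edgeR's quasi-likelihood F-test. The ± values are approximate standard errors (SE), the absolute log2 fold change divided by the square root of the F value. The other ATPase genes behaved differently from one another. BRM was at 166 and 164 CPM in HsMYO and 159 to 174 in the SYD lines, a log2 fold change of -0.02 ± 0.06 (adjusted p = 0.88), and CHR12 gave 0.01 ± 0.07 (adjusted p = 0.92). CHR23 fell from 32.4 and 34.8 CPM to between 25.3 and 27.0 (log2 fold change -0.36 ± 0.07). Among the 12 tested SWI/SNF genes the third that fell was ARP7, an actin-related subunit, at -0.34 ± 0.08; without HsMYO replicate 1 its call was lost.

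Total counts of the 6 libraries ran from 18713555 to 27606120, so that 3 counts corresponded to 0.109 to 0.160 CPM, and replicates differed by more than counting error. The first principal component of the 6 libraries held 65.7% of their variance and put both HsMYO libraries (-53.9 and -48.5) apart from the 4 libraries of the SYD lines (18 to 33.1). The second held 12.6% and gave the SYD1 libraries positive and the SYD2 libraries negative values (-23.1 and -17.5).

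A gene was called where the mean of the SYD lines differed from HsMYO at an adjusted p under 0.05 and both lines moved the same way. Of 19612 tested genes 6304 were called, or 32.1%, of which 3475 (17.7%) were higher and 2829 (14.4%) lower in the SYD lines. Without the condition on sign 6311 genes (32.2%) passed. Most of these changes were small: the median called gene moved 1.38-fold up or 1.33-fold down. Changes of at least 2-fold were called in 1198 genes (6.11%), 739 higher (3.77%) and 459 lower (2.34%), and changes of at least 8-fold in 108 higher and 39 lower genes. A stricter reading, in which each line alone had to pass against the shared controls, left 3674 genes (18.7%), 2150 higher and 1524 lower. Taken singly, SYD1 had 5104 called genes (26%) and SYD2 5075 (25.9%). The count rests more on 1 control library than on any of the others: without HsMYO replicate 1 there were 3453 calls in all, 2011 in each line alone, 3065 in SYD1 and 2674 in SYD2, while the 2-fold count was 956 without it. The median log2 fold change over all tested genes was 0.01.

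**Figure D1:**
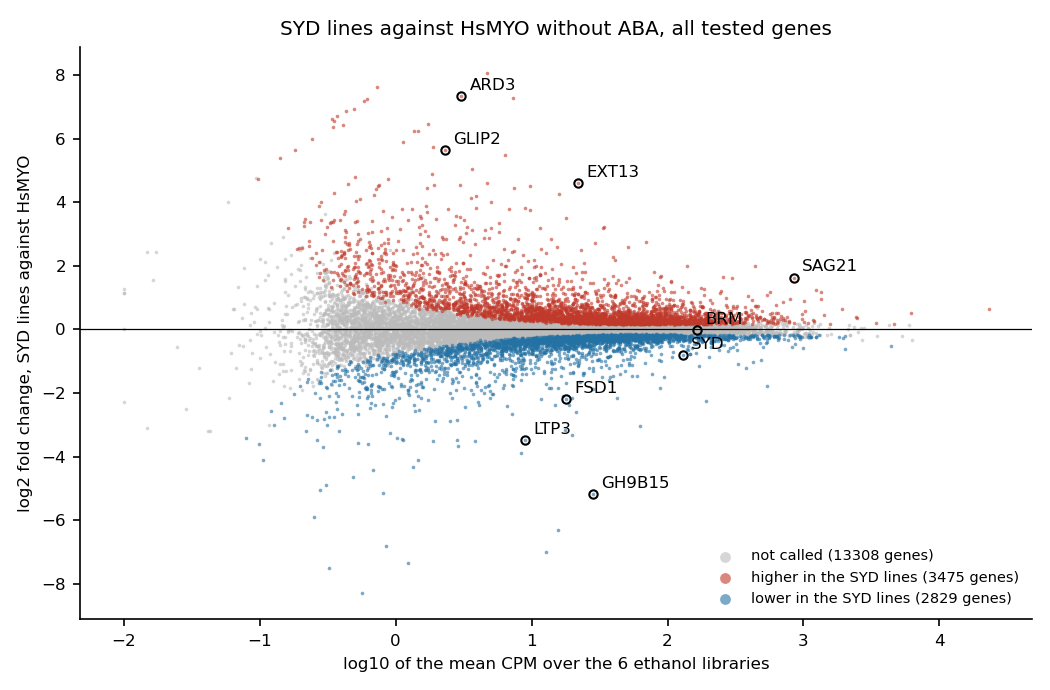
Log2 fold change of the mean of both SYD lines against HsMYO without ABA (y) by the log10 of the mean CPM over the 6 ethanol libraries (x), 1 point a tested gene, coloured by call, with 9 genes circled. Small called changes fill the range of levels on both sides of 0, and the largest ones, such as ARD3 and GH9B15, lie among genes of low or middle level.

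The genes that rose most in both lines included cell wall genes, several of them known from root hairs, beside defence-type and metabolic enzymes. They were picked by a rule: among genes with a symbol that were called in the mean and in each line, with all 4 SYD-line libraries on one side of both controls (49% of tested genes) and a mean of at least 1 CPM, the 15 with the largest change in their weaker line. The first gene outside had a weaker-line log2 fold change of 3.68, as did the last inside. In order they were ARD3, BGLU29, XTH26, FLA6, GLIP2, RHS18, XTH13, KUOX1, BAM5, RHS12, XTH14, PDF2.5, BHLH100, LHB1B1 and EXT13. All had been nearly silent in the control, at no more than 1.85 CPM in any HsMYO library. Since the rule picked them for size, their fold changes are a description.

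Stretches of 3 root-hair genes whose 250 bases upstream of the RefSeq gene start hold the root hair element (RHE), a promoter motif known from genes of hair cells, are shown because root hair genes recur among the large rises. Each is a stretch of 60 bases of the TAIR10.1 reference, read 5′ to 3′ on the gene's strand, with the element in capitals:
EXPA7 (plus strand, chr1:4276405-4276464): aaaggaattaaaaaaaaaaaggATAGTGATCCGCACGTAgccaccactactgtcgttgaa
PRP3 (plus strand, chr3:23182533-23182592): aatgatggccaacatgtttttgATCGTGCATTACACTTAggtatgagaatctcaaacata
RHS18 (plus strand, chr5:7426196-7426255): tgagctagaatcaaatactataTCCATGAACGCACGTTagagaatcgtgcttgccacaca

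On either strand, the element was found upstream of 207 of 27443 protein-coding genes (0.754%), of 1 of the 15 genes above (RHS18) and of 2 of the 5 root epidermis markers that rose (LRX1 and PRP3). A match is a description of these letters and not a tested site.

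EXT13, an extensin of the cell wall, reached the highest level of the 15. It was at 0.265 and 1.85 CPM in HsMYO, 71.2 and 29.7 in SYD1, and 21.4 and 7.77 in SYD2 (24.2-fold, adjusted p = 0.00011). Its log2 fold change was 4.6, but 3.84 without HsMYO replicate 1 and 6.63 without HsMYO replicate 2. The 3 xyloglucan-remodelling enzymes rose with it. XTH26 had 1 count in the HsMYO libraries together and 1.04 to 5.79 CPM in the SYD lines, a ratio of 115 with a counting interval of 20.5 to 4577. XTH14 went from 0.0441 and 0.276 CPM to between 2.52 and 9.04, and XTH13 from 0 and 0.276 to between 3.16 and 9.48; XTH13 was not called by DESeq2 (adjusted p = 0.17). RHS18, annotated as root hair specific, stood at 0 and 0.0787 CPM in HsMYO against 5.20, 2.96, 1.53 and 1.55, and RHS12, of the same naming, at 0 and 0.197 against 1.29 to 4.6, with no call by DESeq2 (adjusted p = 0.22). FLA6, a fasciclin-like arabinogalactan protein, rose from 1 count in both controls to 175 in the 4 SYD-line libraries.

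The remaining genes of the 15 were of other kinds. ARD3, an acireductone dioxygenase of the methionine salvage cycle, had 1 count in the HsMYO libraries and 376 in the SYD lines (6.88, 5.71, 2.17 and 3.49 CPM), a ratio of 211.5 with a counting interval of 37.7 to 8376. GLIP2, a GDSL-motif lipase, rose from 0.0441 and 0.0787 CPM to between 2.57 and 4.33. BAM5, a beta-amylase, went from 0.309 and 0.276 CPM to 6.17, 4.86, 5.48 and 4.53. KUOX1, an oxidoreductase named for its induction by karrikins, reached 4.5 to 8.46 CPM from 0.132 and 0.394. BHLH100, a transcription factor of the iron deficiency response, went from 0.397 and 0.118 CPM to between 3.38 and 3.80. In SYD1 the change was larger than in SYD2 for 14 of the 15, though the difference between the lines was called only in PDF2.5, a defensin, and LHB1B1, a chlorophyll a/b antenna protein whose reads may be shared with near-identical LHCB1 copies.

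The 15 genes that fell most in both lines, by the same rule, were GH9B15, LAC7, UMAMIT28, LTP3, PGAZAT, UMAMIT29, CYP81D1, HWI1, TYRDC, NAS3, UPI, FSD1, GBF6, PIP2;5 and ADF5. The last inside had a weaker-line log2 fold change of -1.92 and the first outside one of -1.83. GH9B15, a family 9 glycosyl hydrolase (the family of plant endoglucanases), was at 75 and 85.6 CPM in HsMYO, 3.09 and 1.06 in SYD1 and 4.45 and 0.683 in SYD2, a 36.6-fold fall. On the log2 scale this was -5.19, and -6.09 without SYD2 replicate 1. PGAZAT, a polygalacturonase that degrades pectin, went from 39.9 and 46.4 CPM to between 3.49 and 6.39 (9.07-fold). Both moved opposite to the wall genes above. LTP3, a lipid transfer protein, fell from 23.8 and 22.2 CPM to between 1.69 and 2.3, 11.3-fold, with an SE of 0.11 on a log2 fold change of -3.49.

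Transport and metal genes were also among them. UMAMIT28 and UMAMIT29, amino acid transporters of one family, fell 14.9-fold (22.6 and 21.2 CPM to between 1.00 and 2.32) and 10.8-fold (2.3 and 2.87 CPM to between 0.108 and 0.379). NAS3, which makes the metal chelator nicotianamine, went from 12.8 and 16.1 CPM to between 2.12 and 3.26, and FSD1, an iron superoxide dismutase, from 40.2 and 34.8 to between 7.45 and 9.78. GBF6, a bZIP transcription factor also known as bZIP11, was at 41.0 and 41.1 CPM in the controls and 8.40 to 10.3 in the SYD lines. The line difference was called in none of the 15, by edgeR at the same threshold. Their calls held in every alternative tried.

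**Figure D2:**
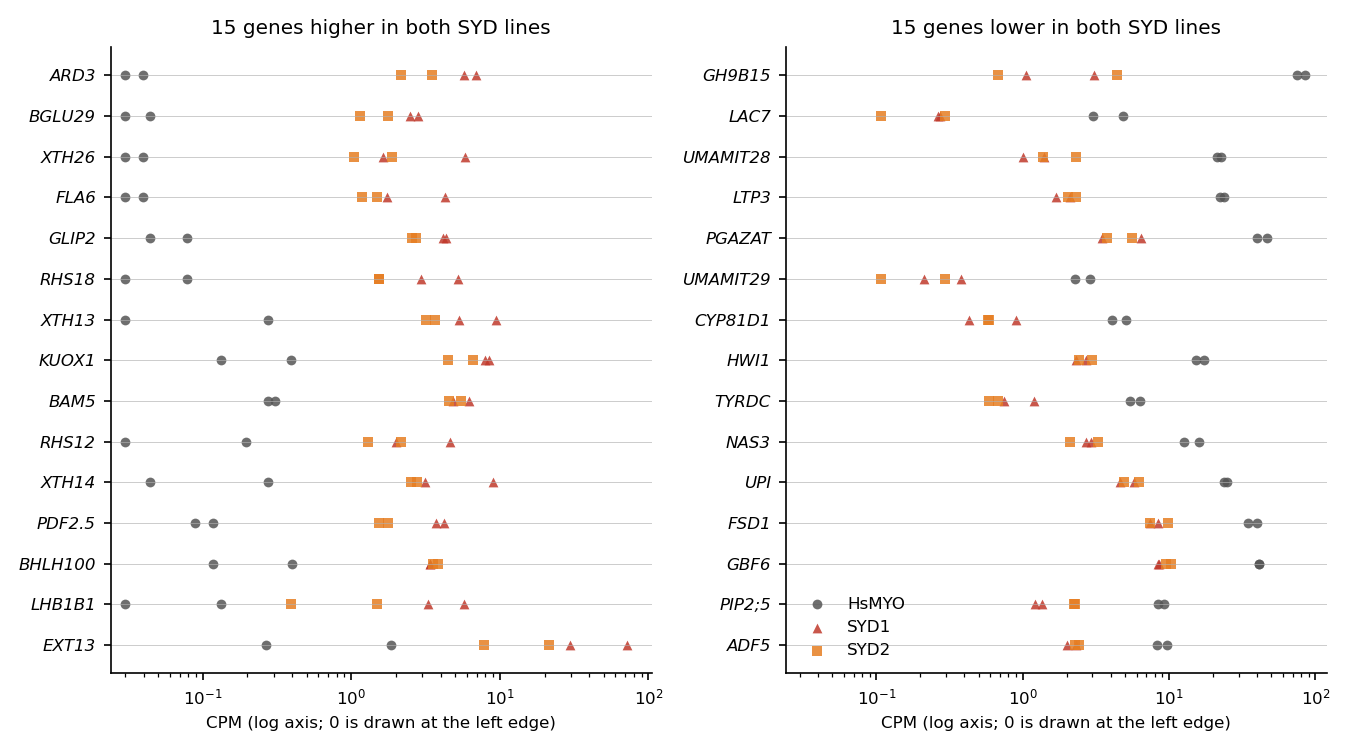
CPM on a log axis (x) of the 15 genes with the largest rise (left) and the 15 with the largest fall (right) in both SYD lines, 1 point a library: HsMYO grey circles, SYD1 red triangles, SYD2 orange squares; values of 0 stand at the left edge. The control points never overlap the SYD-line points because the rule that picked the genes required it. In the left panel SYD1 mostly lies to the right of SYD2.

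Some of the largest changes were in loci without a symbol, which are named here after their values were seen. AT3G05170, a gene annotated as a phosphoglycerate mutase family protein (chromosome 3, 1466483 to 1468400), had 1 count in the HsMYO libraries and 6.72, 7.29, 6.67 and 7.34 CPM in the SYD lines. The RNA gene AT2G01422 was at 45.7 and 46.7 CPM in HsMYO and at 0.217 to 0.899 in the SYD lines, a log2 fold change of -6.32 (-7.00 without SYD1 replicate 2). AT3G29633, an uncharacterized protein gene, fell from 36.5 and 38.9 CPM to between 0.108 and 0.611. On ABA these loci stood much as they did without it: AT2G01422 was at 78.6 and 78.7 CPM in HsMYO against 0.256 to 1.01, and AT3G05170 at 0.0336 and 0 CPM against 4.72 to 6.26. AT4G08410 and AT4G08400, 2 extensin-like genes, went from at most 0.866 CPM to between 3.02 and 27.2, and were at 0 in all 6 libraries on ABA.

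Gene lists chosen by function held 650 members, of which 635 matched their identifier and 544 were tested; 162 were higher and 107 lower. These make 49.4% of the tested members, against 32.1% of all tested genes. The lists were drawn from pathways likely to differ at germination, with earlier results of these data known. The larger share among their members is therefore not an independent result. They are described by counts and medians, with no test of a list. Their counts stand beside shares over all tested genes of 17.7% higher and 14.4% lower.

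**Figure D3:**
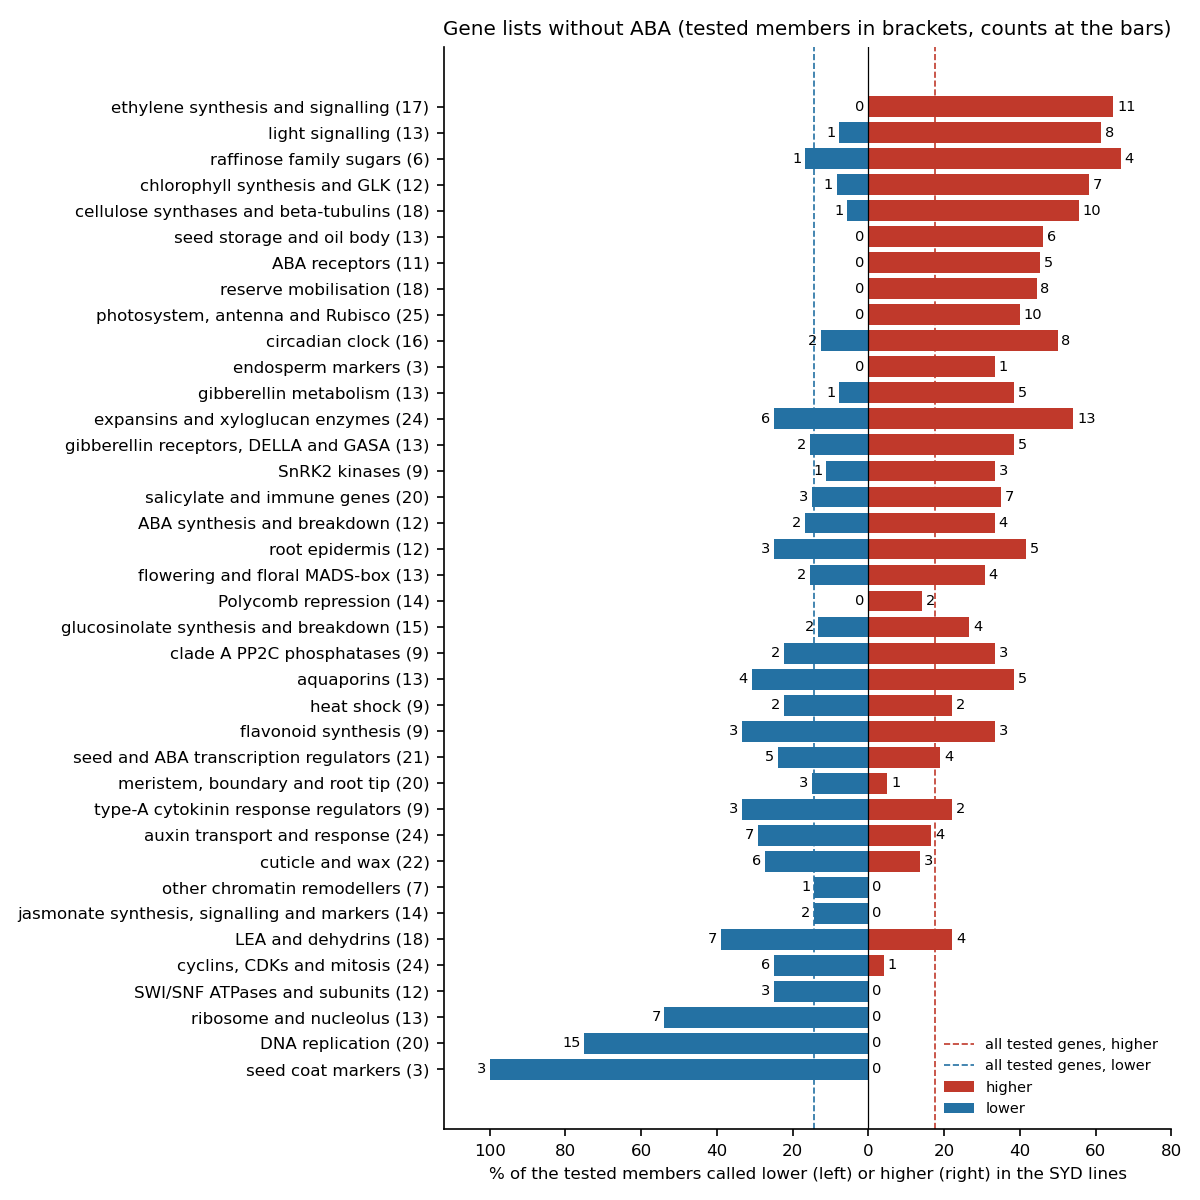
Share of tested members called lower (left, blue) or higher (right, red) in the SYD lines without ABA for 38 gene lists, with counts at the bar ends and tested members in brackets; dashed lines mark the shares over all tested genes, 14.4% lower and 17.7% higher. DNA replication (15 of 20 lower) and ethylene genes (11 of 17 higher) lie at opposite ends, while the seed coat list at the bottom has 3 tested genes.

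Root epidermis genes moved in both directions, with the larger changes upward. Of 12 tested root epidermis genes 5 rose and 3 fell (median log2 fold change 0.15). The other 4 were not called: the cell fate regulators EGL3 (0.02), TTG1 (0.07) and CPC (-0.28), and RSL1 (0.22). PRP3, a proline-rich wall protein of hair cells, was at 0.662 and 1.46 CPM in HsMYO, 41.4 and 24.1 in SYD1 and 17.3 and 9.93 in SYD2 (log2 fold change 4.27 ± 0.34, and 4.97 without HsMYO replicate 2). LRX1, a leucine-rich repeat extensin of root hairs, went from 2.47 and 2.60 CPM to 27.3, 19.2, 12.1 and 6.44, and COBL9, needed for hair tip growth, from 1.63 and 2.72 to between 4.64 and 11. The difference between the SYD lines was called in 2 of the 12, LRX1 and PRP3, both higher in SYD1, and not in COBL9. Over all tested genes it was called in 0.688%. RHD6, a basic helix-loop-helix factor that starts hair growth, rose 1.39-fold and its downstream factor RSL4 1.80-fold; without HsMYO replicate 1 the RSL4 value was 0.61 on the log2 scale (adjusted p = 0.13). The genes that fell were specifiers of the hairless cell fate, WER (-0.37 ± 0.08) and GL3 (-0.81 ± 0.12), together with GL2, whose call was lost by DESeq2 and without HsMYO replicate 2 (-0.27, adjusted p = 0.12).

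Expansins, which loosen cell walls, and xyloglucan enzymes changed in both directions: 13 of 24 rose and 6 fell (median 0.30). In this list, which does not hold XTH13, XTH14 and XTH26, the hair expansins EXPA7 and EXPA18 had the largest rises, EXPA7 from 0.530 and 0.512 CPM to 7.80, 5.13, 3.46 and 2.27. Among members of higher level, EXPA8 rose from 97.2 and 93.0 CPM to between 225 and 236 and EXPA9 from 334 and 282 to between 601 and 719. XTH33 rose 3.94-fold and XTH19 2.24-fold. Falls were as plain in EXPA5 (2.38 and 1.73 CPM to between 0.247 and 0.542) and XTH24 (24.8 and 29.1 CPM to between 6.77 and 8.30). Of 18 cellulose synthase and beta-tubulin genes 10 rose and 1 fell, with TUB5 at 1.68-fold, CESA8 at 1.74-fold and CESA1 at 1.32-fold; without HsMYO replicate 2 the rises numbered 6. The fall was lost without either HsMYO library, SYD1 replicate 2 or SYD2 replicate 2.

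The gibberellin (GA) pathway, which promotes germination, moved at several steps. Of 13 tested metabolism genes 5 rose and 1 fell (median 0.28). GA20OX2, a late biosynthetic oxidase, was at 2.25 and 2.56 CPM in HsMYO and 7.53, 8.46, 6.97 and 5.36 in the SYD lines, and its paralogues GA20OX3 and GA20OX1 rose 2.59-fold and 1.94-fold. GA3OX1, the last activating step, fell from 23.5 and 19.7 CPM to 14.7 in the lowest SYD-line library, with all 4 below both controls (log2 fold change -0.44 ± 0.10); without HsMYO replicate 1 it was -0.31 (adjusted p = 0.11). In the list of GA receptors, DELLA repressors and GASA peptides 5 of 13 rose and 2 fell; the rises numbered 3 without HsMYO replicate 2 and 3 without SYD1 replicate 1. GAI, a DELLA repressor, fell 1.52-fold, GASA1 fell 3.44-fold (14.3 and 13.1 CPM to between 3.22 and 4.89), and GASA6 and GASA4 rose 2.03-fold and 1.68-fold.

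Genes of the ABA pathway changed without a single direction, in short lists, where 17.7% of all tested genes rose and 14.4% fell. ABA binds PYR/PYL receptors, which then inhibit the clade A PP2C phosphatases and so free the SnRK2 kinases that activate factors such as ABI5. Of 11 tested receptor genes 5 rose and 0 fell (median 0.32): PYL2 rose from 43.6 and 50.6 CPM to between 69.5 and 89.9, and PYR1 1.25-fold. Without HsMYO replicate 1 the rises numbered 3. Of 9 PP2C genes 3 rose and 2 fell. ABI1 rose most plainly, from 77.8 and 100 CPM to 222, 229, 223 and 206 (log2 fold change 1.3 ± 0.10, adjusted p = 1.3e-07), HAI2 rose from 1.99 and 1.93 CPM to between 4.35 and 5.58, and ABI2 fell from 7.59 and 7.60 to between 3.91 and 4.82. SnRK2 genes also split, with SNRK2.5 up 1.79-fold and SNRK2.8 down 1.65-fold among 3 higher and 1 lower of 9.

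Of the 21 tested regulators of seed maturation and ABA response 4 rose and 5 fell. The share that rose was close to the 17.7% of all tested genes, of which 14.4% fell. ABI3, a master regulator of seed maturation, fell from 199 and 156 CPM to between 118 and 131, and ABI5, the bZIP factor downstream of it, from 31.7 and 26.0 to between 18.6 and 21.4, each by 0.52 on the log2 scale (SE 0.08). AFP2, which encodes an ABI5-binding protein, fell 1.44-fold. RDO5, a phosphatase-like protein that promotes dormancy, went the other way, from 18.1 and 15.9 CPM to 44.4, 44.1, 42.9 and 37.4 (log2 fold change 1.31 ± 0.08, adjusted p = 1.7e-08), and ABF1, an ABI5 relative, rose 2.1-fold. Without HsMYO replicate 1 the rises in this list numbered 2. ABA breakdown moved between its isoforms: CYP707A2 fell from 15.1 and 13.9 CPM to between 6.92 and 7.61, while CYP707A3 rose from 28.5 and 27.0 to between 55.8 and 65.3 and CYP707A1 rose 1.31-fold.

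LEA genes fell in the larger number but not as a whole. Of 18 tested, 7 fell and 4 rose (median -0.02). ECP63 was at 115 and 57.8 CPM in HsMYO, 13.8 and 14.0 in SYD1 and 23.5 and 29.4 in SYD2 (log2 fold change -2.17 ± 0.19). LEA4-5 went from 116 and 75 CPM to between 28.4 and 40.9, LEA4-1 from 55.8 and 35.4 to between 16.9 and 25.8, and EM6 from 8.74 and 3.35 to between 0.971 and 2.44. In these 4 genes the controls were unequal and HsMYO replicate 1 was the higher one. Without it the list had 4 lower and 7 higher genes, and EM6 gave -1.01 (adjusted p = 0.062). SAG21, a LEA protein also linked to senescence and stress, rose from 323 and 384 CPM to 997, 1071, 1245 and 1052, and LEA14 and COR47 rose 1.85-fold and 1.44-fold.

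All 7 LEA genes that fell hold ACGTG, the core of the ABA-responsive element, within 250 bases upstream on either strand, as did 2 of the 4 that rose, 10 of the 15 leading higher genes, 6 of the 8 clock genes that rose and 6288 of 27443 protein-coding genes (22.9%). Stretches of 2 of them are shown with each match in capitals, from the TAIR10.1 reference on the gene's strand:
LEA4-5 (minus strand, chr5:2090452-2090511): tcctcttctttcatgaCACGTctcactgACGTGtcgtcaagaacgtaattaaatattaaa
LEA18 (minus strand, chr2:14863435-14863494): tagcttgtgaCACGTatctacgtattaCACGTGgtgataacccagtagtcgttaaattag

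Storage and reserve genes rose where they were called. In the storage protein and oil body list 6 of 13 rose and 0 fell (median 1.02), and 2 were called higher in each line alone. SESA4, a 2S albumin, was at 7.68 and 3.54 CPM in HsMYO and at 33.5, 15, 29.5 and 49.4 in the SYD lines, and SESA2 rose 2.79-fold; reads of the 2S albumin genes may be split among near-identical copies. Without HsMYO replicate 2, the lower control for CRA1 (111 and 33.3 CPM), the list had 3 higher and 3 lower genes, and without SYD1 replicate 1 it had 2 lower. With no filter on low counts it had 4 lower genes, and with the replicate number as a block 2. Of 18 reserve mobilisation genes 8 rose and 0 fell (median 0.16). ICL, isocitrate lyase of the glyoxylate cycle, went from 17277 and 16350 CPM to 25273, 26209, 29554 and 23696, and PCK1, which starts gluconeogenesis from it, from 4895 and 4665 to between 6253 and 7629. The 8 rises became 4 to 5 when either control, SYD1 replicate 1 or SYD2 replicate 1 was left out. STS, stachyose synthase of the raffinose family sugars, rose from 0.177 and 0.236 CPM to 3.14, 2.38, 1.83 and 1.15.

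DNA replication genes moved together. Of 20 genes 15 fell, 0 rose, and all 15 also fell in each line alone, with a median log2 fold change of -0.56 against 0.01 over all tested genes. The MCM helicase subunits unwind DNA at origins: MCM2 was at 85.7 and 82.4 CPM in HsMYO, 56.0 and 49.0 in SYD1 and 57.0 and 55.2 in SYD2, and MCM3, MCM4, MCM5, MCM6 and PRL (the MCM7 subunit) fell 1.46-fold to 1.61-fold. PCNA1 and PCNA2, the sliding clamp of the polymerase, fell 1.51-fold and 1.5-fold, and the chromatin assembly subunits FAS1 and FAS2, which load histones on new DNA, 1.29-fold and 1.57-fold. In each of these genes all 4 SYD-line libraries lay below both controls, as in 22.9% of all tested genes. The same held for 2746 of the 2829 genes called lower, so it adds little to the calls. Mitotic genes did not follow: of 24 cyclin, CDK and mitosis genes 6 fell and 1 rose (median -0.04), and the B-type cyclins CYCB1;1 to CYCB1;4 were not called. Of the 6, CYCD1;1 kept its call in every alternative and fell from 20.7 and 23.8 CPM to between 11.9 and 15.6; the falls numbered 3 by DESeq2, 2 without HsMYO replicate 1 and 3 without HsMYO replicate 2, and the rise was lost without either HsMYO library. Of 13 ribosomal and nucleolar genes 7 fell by at most 1.3-fold and 0 rose, but 0 were called lower without HsMYO replicate 1, 3 without SYD1 replicate 2 and 4 without SYD2 replicate 2. Of the ribosomal and nucleolar genes 2 were called lower in each line alone. In whole seeds, fewer cells of a type and less RNA per cell cannot be told apart.

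E2F factors switch on replication genes at the start of S phase, and their sites TTTCCCGC or TTTGGCGC (either strand) lay within 250 bases upstream of 8 of the 15 genes that fell, against 263 of 27443 protein-coding genes (0.958%). Stretches of 3 helicase genes are shown with the site in capitals, again from TAIR10.1 on the gene's strand:
MCM5 (minus strand, chr2:3527501-3527560): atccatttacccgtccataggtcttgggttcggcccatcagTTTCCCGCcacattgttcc
MCM2 (plus strand, chr1:16970154-16970213): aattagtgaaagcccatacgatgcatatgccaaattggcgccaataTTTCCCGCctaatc
MCM3 (minus strand, chr5:18773843-18773902): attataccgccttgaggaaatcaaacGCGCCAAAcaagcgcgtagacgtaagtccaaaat

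Genes of greening rose in part. Of 12 chlorophyll synthesis and GLK genes 7 rose and 1 fell (median 0.30), with 4 rises and 0 falls without HsMYO replicate 1 and 2 falls without SYD2 replicate 1. GLK2, a transcription factor that drives chloroplast genes, went from 50.1 and 50.7 CPM to 129, 134, 106 and 97.0. PORA, protochlorophyllide oxidoreductase, went from 5.12 and 4.84 to 36.0, 24.5, 16.9 and 11.3, and PORB from 489 and 498 to between 815 and 1014. Of 25 photosystem, antenna and Rubisco genes 10 rose and 0 fell (median 0.36), but 6 by DESeq2, 5 without HsMYO replicate 1, 6 without SYD2 replicate 1 and 16 with no filter on low counts. Of these 25 genes 3 were called higher in each line alone, and the median was 0.50 in SYD1 and 0.21 in SYD2. LHCB1.1 had the widest range, 9.23 and 13.0 CPM in HsMYO against 78.0 and 81.7 in SYD1 and 41.4 and 22.4 in SYD2. Of 13 light signalling genes 8 rose (3 without HsMYO replicate 1) and 1 fell, PIF5, whose call was lost in 7 alternatives, each single library left out among them. The rises included PIF3, a factor bound by phytochrome (58.0 and 68.8 CPM to between 92.4 and 111), and PIF1, a brake on germination in the dark (1.40-fold).

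In the circadian clock list more genes rose than fell. Of 16 tested genes 8 rose, PRR9, PRR7 and PRR3 among them, 2 fell (median 0.37), and CCA1, the partner of LHY, was not called. Without HsMYO replicate 1 the calls of PRR7 (0.16, adjusted p = 0.33) and PRR9 (0.55, adjusted p = 0.061) were lost, and that of PRR7 also without SYD1 replicate 2 or SYD2 replicate 2. The evening complex genes ELF4 and LUX rose, ELF4 from 7.77 and 8.39 CPM to 27.8, 30.7, 23.5 and 28.4 (log2 fold change 1.77 ± 0.12) and LUX from 25.8 and 25.9 to between 42.0 and 50.5. PRR5, GI and TOC1, which act from afternoon to dusk, rose 2.42-fold, 1.59-fold and 1.57-fold. LHY, a morning-phased repressor of evening genes, fell from 72.8 and 79.8 CPM to 49.6, 51.1, 35.3 and 36.8, and RVE8 fell 1.63-fold; without HsMYO replicate 2 the RVE8 value was -0.42 (adjusted p = 0.07). The hour of sampling within the light cycle is not given in the sources used here, so a shift of phase and a change of level cannot be told apart.

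LHY and its relatives bind the evening element AAATATCT, which lay (either strand) within 250 bases upstream of 4 of the 8 clock genes that rose, 0 of the 2 that fell and 1314 of 27443 protein-coding genes (4.79%). The 4 are shown with the element in capitals, from TAIR10.1 on the gene's strand:
ELF4 (minus strand, chr2:16735144-16735203): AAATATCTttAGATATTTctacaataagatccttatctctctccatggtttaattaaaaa
PRR5 (minus strand, chr5:8358700-8358759): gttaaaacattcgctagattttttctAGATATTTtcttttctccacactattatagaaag
LUX (plus strand, chr3:17182964-17183023): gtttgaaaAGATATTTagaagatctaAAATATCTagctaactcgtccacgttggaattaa
TOC1 (plus strand, chr5:24674786-24674845): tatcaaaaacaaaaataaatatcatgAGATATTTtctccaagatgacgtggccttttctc

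**Figure D4:**
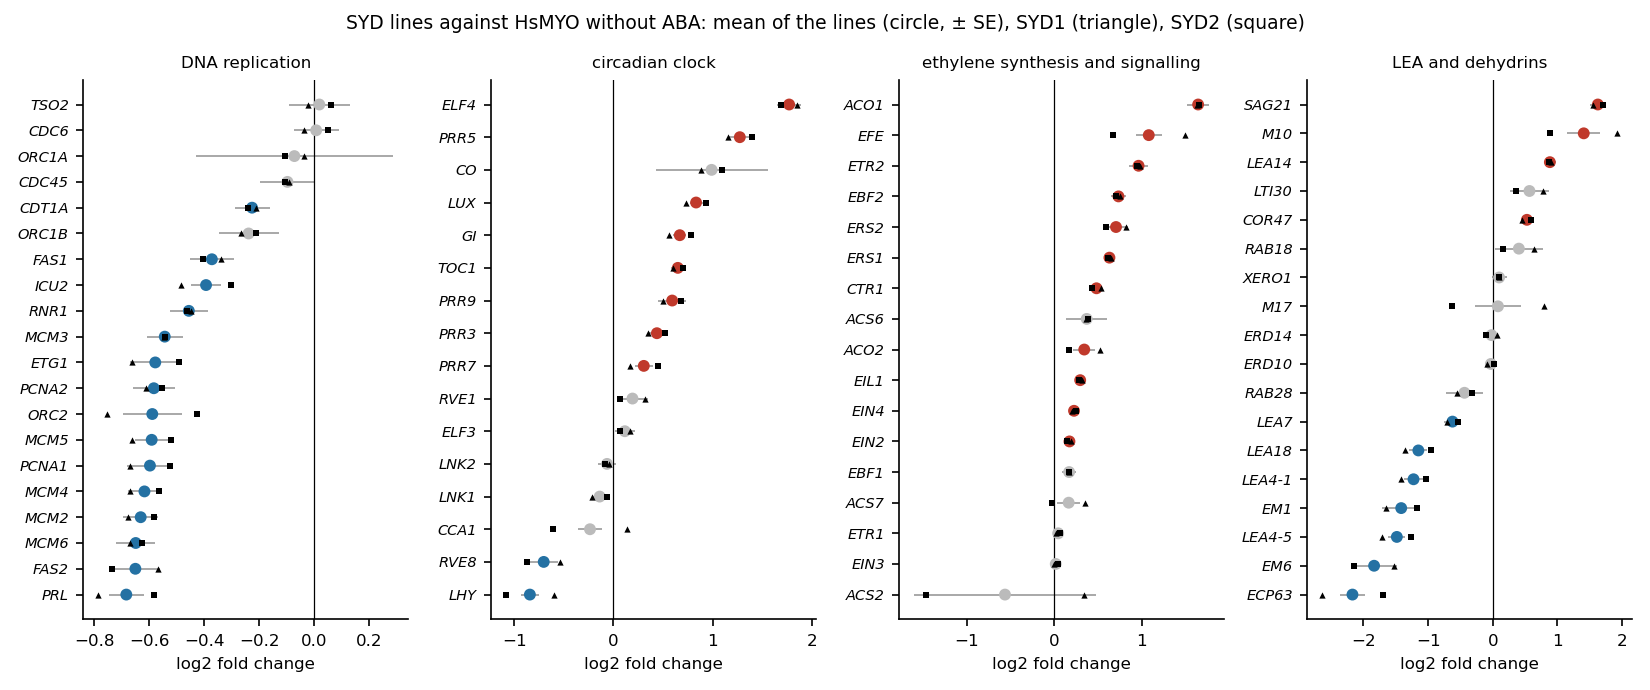
Log2 fold change without ABA (x) of every tested member of 4 lists (DNA replication, circadian clock, ethylene, LEA): circles are the mean of both SYD lines with the SE, red where called higher, blue where called lower and grey where not called, triangles SYD1 and squares SYD2. Replication genes lie below 0 down to -0.68 (PRL), ethylene genes mostly above 0 up to 1.65 (ACO1), and clock and LEA genes on both sides.

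Ethylene genes rose at synthesis, perception and feedback. Of 17 tested genes 11 rose and 0 fell (median 0.34), with 7 rises without HsMYO replicate 1. ACO1, one of the oxidases that make ethylene, went from 98.5 and 113 CPM to 325, 334, 398 and 269, and EFE, another, from 5.21 and 5.95 to 16.7, 14.9, 10.3 and 7.66. The receptor genes ETR2 (47.4 and 58.1 CPM to between 89.1 and 115), ERS2 (1.63-fold) and ERS1 (1.55-fold) rose, as did CTR1, the kinase that keeps the pathway off (1.40-fold), and EBF2, an F-box protein that removes the EIN3 factors (72.1 and 79.7 CPM to between 114 and 136). ETR1, EIN3 and EBF1 were not called.

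Other hormone and defence lists were mixed. Over all tested genes 17.7% rose and 14.4% fell, and the share of jasmonate genes that fell was close to the latter. Of 30 jasmonate genes 14 were tested, 2 fell and 0 rose, with 1 fall when either HsMYO library was left out; JAZ10, a repressor of the pathway, fell from 3.40 and 3.78 CPM to between 1.52 and 2.64. Among 20 salicylate and immune genes 7 rose and 3 fell: ICS1, which makes the precursor of salicylate, went from 35.4 and 37.4 CPM to 133, 131, 100 and 102 (adjusted p = 1.5e-10), and PR1, a salicylate marker, from 2 counts in the HsMYO libraries to 93 in the SYD lines, a ratio of 26.2 with a counting interval of 7.04 to 219, while RPP4, an immune receptor, fell 3.10-fold. Of 24 auxin genes 4 rose and 7 fell (median -0.05): AXR3 rose 1.88-fold, and LAX2, an auxin importer, and TAA1, of auxin synthesis, fell 1.51-fold and 1.53-fold. The auxin falls numbered 4 by DESeq2, 3 without HsMYO replicate 1, 4 without HsMYO replicate 2 and 4 without SYD2 replicate 2, and the rises 2 without HsMYO replicate 2.

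Markers of seed tissues were checked beside these groups. Of the seed coat markers 3 of 10 were tested and all 3 fell; MUM2, a mucilage galactosidase, fell from 51.7 and 55.0 CPM to between 27.3 and 33.1, and the falls numbered 1 by DESeq2, without HsMYO replicate 1 or without SYD1 replicate 1. The summed level of the 3 was 84.1 to 85.4 CPM in HsMYO and 51.6 to 58.8 in the SYD lines. The endosperm marker EPR1 was at 3894 and 2349 CPM in HsMYO and 1786 to 3122 in the SYD lines (log2 fold change -0.34, adjusted p = 0.17), overlapping between groups. Across the alternatives the EPR1 value ran from -0.66 (without HsMYO replicate 2) to 0.06, and it was called lower with no filter on low counts (-0.37). FWA, an imprinted endosperm gene, rose from 0.353 and 0.354 CPM to 2.49, 1.90, 1.68 and 2.63. In the meristem list 1 of 20 rose and 3 fell (1 fell without HsMYO replicate 1); KNAT1, a class I KNOX factor, fell from 24.9 and 24.2 CPM to between 13.4 and 16.9. Over all tested genes 17.7% rose and 14.4% fell, so the meristem counts were near or under these shares. The part of tissue makeup in the results above was not tested.

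Single genes of several other lists are given here. TGG1, a myrosinase that breaks down glucosinolates, rose from 174 and 155 CPM to between 281 and 357, and NSP1, which steers its products to nitriles, fell from 670 and 619 to between 295 and 341. CYP96A15, a wax oxidase, rose 3.34-fold (3.49 and 3.19 CPM to between 9.88 and 11.6). The aquaporin TIP1;2 fell from 81.5 and 87.9 CPM to 58.3, 45.5, 33.3 and 24.8. SVP, a repressor of flowering, fell 2.23-fold. Polycomb genes maintain silencing and act against SWI/SNF in the fly and in plants. Of 14 tested 2 rose, CLF (60.3 and 61.9 CPM to between 76.3 and 82.9) and VEL1 (1.29-fold), and 0 fell. Over all tested genes 17.7% rose and 14.4% fell, so this list changed no more often than genes at large.

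The SYD lines differed from each other in far fewer genes than from the control. SYD1 and SYD2 differed in 135 genes (0.688%), 81 higher (0.413%) and 54 lower (0.275%) in SYD1, and 95 of these were among the 6304 called genes. The count fell to 13 without SYD1 replicate 1, 57 without SYD1 replicate 2 and 42 without SYD2 replicate 2, and was 616 with no filter on low counts. LRX1 was higher in SYD1 (27.3 and 19.2 CPM) than in SYD2 (12.1 and 6.44), as was PRP3 (adjusted p = 0.032). PORA, GLK2, LHCB1.1 and EFE were also higher in SYD1 (adjusted p = 0.020, 0.025, 0.030 and 0.026), and ICS1 too (0.015). TT7, a flavonoid hydroxylase, was at 19.5 and 15.2 CPM in SYD1 and 6.42 and 10.1 in SYD2. SYD itself did not separate the lines (adjusted p = 0.98).

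On ABA, with separate libraries and their own HsMYO controls, the same rule called 6390 genes (32.6%), 3286 higher and 3104 lower. Of the 3475 genes higher without ABA 1913 (55.1%) were also higher on it, and of the 2829 lower genes 1533 (54.2%) were also lower; 56 and 51 were called the opposite way. Among the 2-fold calls the shares were 55.2% of those higher (408 of 739) and 71.7% of those lower (329 of 459). The difference between both contrasts was itself called in 1008 genes (5.14%), with a higher value on ABA in 527 (2.69%) and a lower one in 481 (2.45%); of the 1008, 453 were higher and 223 lower without ABA. Without HsMYO replicate 1 the genes shared with the ABA contrast numbered 2289 instead of 3446.

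Replication genes mostly kept their direction on ABA, and ethylene genes did not. Of the 20 replication genes 13 fell on ABA (median -0.33), and the difference between treatments was called in 0 of them by edgeR. Of the 17 ethylene genes 3 rose and 3 fell on ABA (median 0.00), and the treatments differed in 7: EBF2 gave 0.74 without ABA and 0.00 on it, ETR2 0.97 and -0.02, and EFE 1.08 and -0.73. Of the 15 leading higher genes 6 were also called higher on ABA. In 7 others, among them EXT13, XTH13, XTH14 and XTH26, no library on ABA had a count, so the ABA contrast gives no value for them. Among root epidermis genes RHD6 gave 0.47 without ABA and 0.64 on it. Of the 15 leading lower genes 12 also fell on ABA, LTP3 from 29.6 and 31.3 CPM to between 2.15 and 2.67. RDO5 and HAI2, higher without ABA, gave -0.13 and 0.02 on it (adjusted p of the difference 2.5e-06 and 0.00017), and STS changed sign, from 3.23 to -0.84. SAG21, ICL, ICS1 and GASA6 gave nearly the same value in both, for SAG21 1.63 and 1.62.

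**Figure D5:**
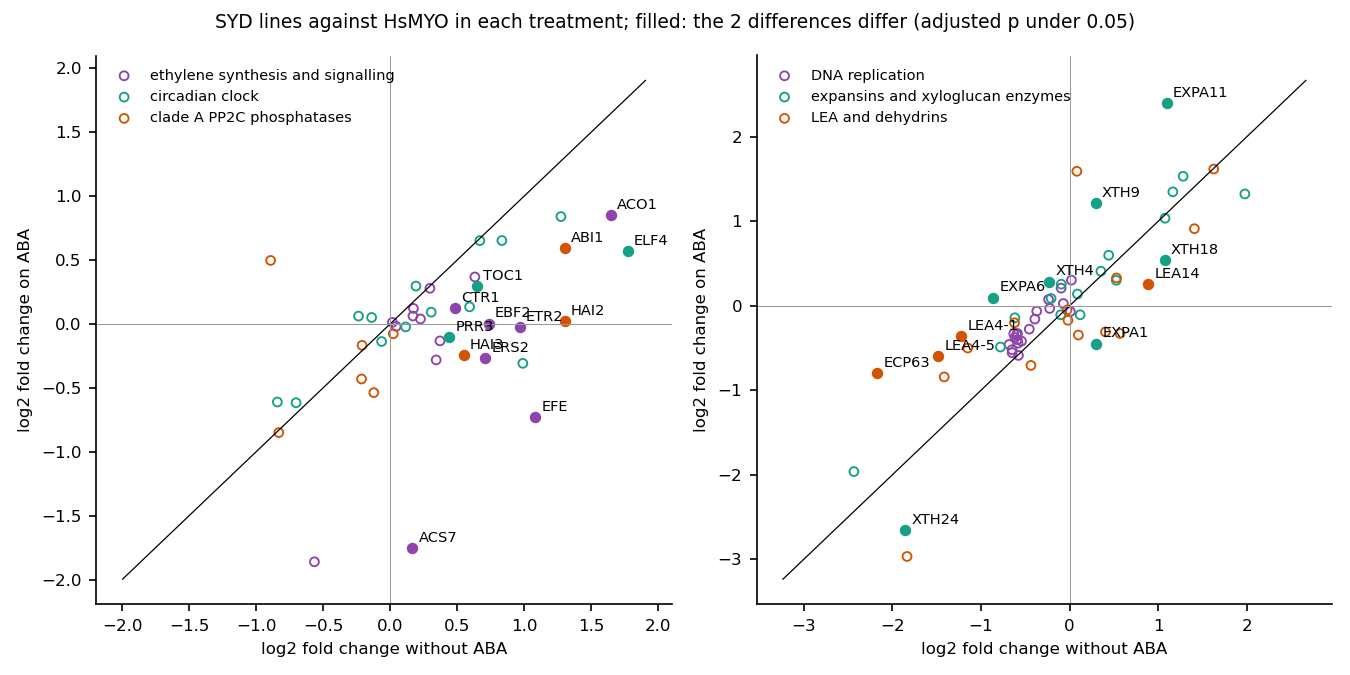
Log2 fold change of the SYD lines against HsMYO without ABA (x) and on ABA (y), 1 point a member of 6 lists, filled and named where the treatments differ at an adjusted p under 0.05; the diagonal marks equal values, and members without counts on ABA are left out. In the left panel ethylene genes such as EFE (1.08 and -0.73) lie below the diagonal, and in the right panel replication genes lie below 0 in both treatments or near it.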

How the data were processed

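RNA of germinating seeds was sequenced in 12 libraries as paired reads of 100 bases. The deposited values are raw counts per gene, whole numbers not normalized by the authors. The submitters' processing notes name Trimmomatic 0.39, STAR 2.7.10a and the TAIR10 build. No source used here gives the counter, its strand setting or the annotation, so reads of near-identical copies and of overlapping or antisense genes may be split or shared. Of 36795 entries 36632 were found by locus tag in RefSeq's TAIR10.1 annotation, the source of symbols, coordinates and promoter sequences.

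The counts were fitted with edgeR 4.0.16 in R 4.3.3 (quasi-likelihood, TMM scaling, filterByExpr with a minimum count of 10, 19612 genes, Benjamini-Hochberg adjustment). All 12 libraries, in 6 groups of 2, shared 1 estimate of spread with 6 residual degrees of freedom. The named genes are SYD, BRM, CHR12 and CHR23, the 15 largest changes in each direction by the rule given with them, and members of the gene lists; loci without a symbol and the metal genes were chosen after their values were seen. The members and lists were chosen with earlier results of these data known. Ratios for genes with 1 to 3 control counts carry 95% intervals that cover counting error only. Alternatives were RLE scaling, no filter, DESeq2 1.42.0, the 6 ethanol libraries alone, the replicate number as a block, and leaving out each ethanol library. The steps were tested on simulated counts. A few list members with unmatched identifiers were not analysed here.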

Additional observations from a re-analysis of the deposited data

Results flagged for a closer look

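The difference between the SYD lines and HsMYO was itself tested between treatments in edgeR, as the log2 fold change on ABA minus that without ABA, and the genes of the text for which it passed are given with that value. The value was below 0 for ABI1 (-0.71, adjusted p = 0.0054), ACO1 (-0.80, adjusted p = 0.014), BGLU29 (-4.93, adjusted p = 0.0036), CTR1 (-0.36, adjusted p = 0.032), EBF2 (-0.73, adjusted p = 0.0018) and EFE (-1.81, adjusted p = 0.0018). Below 0 too were ELF4 (-1.20, adjusted p = 0.00037), ERS2 (-0.97, adjusted p = 0.0062), ETR2 (-0.99, adjusted p = 0.0016), GASA1 (-0.71, adjusted p = 0.027), HAI2 (-1.28, adjusted p = 0.00017) and KUOX1 (-4.62, adjusted p = 0.014). Further values below 0 were those of LEA14 (-0.63, adjusted p = 0.0049), PIF3 (-1.09, adjusted p = 4.8e-05), PRR3 (-0.54, adjusted p = 0.0069), RDO5 (-1.44, adjusted p = 2.5e-06), STS (-4.07, adjusted p = 0.0001) and TOC1 (-0.35, adjusted p = 0.046). The last of them were TT7 (-0.91, adjusted p = 0.0086), UPI (-2.56, adjusted p = 7.9e-05) and XTH24 (-0.80, adjusted p = 0.0083). It was above 0 for ABI3 (0.65, adjusted p = 0.0032), ADF5 (1.38, adjusted p = 0.0042), CESA8 (1.04, adjusted p = 0.0074), CYP707A2 (0.62, adjusted p = 0.0015), CYP96A15 (4.54, adjusted p = 0.00061) and ECP63 (1.37, adjusted p = 0.0071). Above 0 too were GA3OX1 (1.44, adjusted p = 0.00017), GASA4 (0.98, adjusted p = 0.00024), LEA4-1 (0.87, adjusted p = 0.014), LEA4-5 (0.89, adjusted p = 0.0089), NSP1 (0.52, adjusted p = 0.043) and TUB5 (0.52, adjusted p = 0.0084). BGLU29, KUOX1, UPI and ADF5 are in the text because they were picked for their size without ABA. The value reuses the same ethanol libraries, so for these genes it is a description.

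The SYD lines were tested against each other without ABA, and the log2 value of SYD1 minus SYD2 passed in these genes. It was above 0 for CCA1 (0.74, adjusted p = 0.031), EFE (0.83, adjusted p = 0.026), GLK2 (0.37, adjusted p = 0.025), ICS1 (0.39, adjusted p = 0.015), LHB1B1 (2.36, adjusted p = 0.04) and LHCB1.1 (1.34, adjusted p = 0.03). The same held for LRX1 (1.36, adjusted p = 0.0098), PDF2.5 (1.25, adjusted p = 0.03), PORA (1.12, adjusted p = 0.02), PRP3 (1.28, adjusted p = 0.032), TIP1;2 (0.85, adjusted p = 0.042) and TT7 (1.04, adjusted p = 0.0069). All of these were higher in SYD1. CCA1 was not called against HsMYO. With 2 libraries a line, these differences rest on few values.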

How the results depend on the processing

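No called gene was called in the opposite direction under any alternative: between 53.4% (without HsMYO replicate 1) and 99.95% (replicate block) of the 6304 calls were kept. Leaving out single libraries gave 3453 to 5889 calls in all, 2011 to 2918 in each line alone, 3065 to 5313 in SYD1, 2674 to 4798 in SYD2, 13 to 173 between the SYD lines, and 2289 to 3444 shared with the ABA contrast. The lowest value came without HsMYO replicate 1 in all of these except the difference between the lines, where it came without SYD1 replicate 1; the cause was not tested. The 2-fold count, 1198, ran from 956 to 1322. Without the filter on low counts the lines differed in 616 genes, with 26066 genes tested. Same-numbered libraries had residual correlations of -0.03 to 0.15, so the numbers are not taken to pair the libraries; with the replicate block 7189 genes were called, and 308 between the lines. Of the 30 largest changes with SYD and CHR23, 32 called genes, DESeq2 called 30 and every other alternative 32. With 2 libraries a group and 1 control line, small changes depend on single control libraries.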

Other observations

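NAS3, FSD1 and BHLH100 stand among the largest changes, and 36 genes of iron and copper handling were therefore looked up after their values were seen. Of the 29 tested 8 rose and 11 fell, where 32.1% of all tested genes were called. The ferritins, which store iron in plastids, fell as a family of 4: FER1 went from 79.3 and 80.7 CPM in HsMYO to 44.8, 42.4, 34.5 and 32.6 in the SYD lines (log2 fold change -1.07, adjusted p = 8.4e-07 by edgeR), and FER4 from 26.6 and 28.2 to between 10.3 and 14.7. FER2 and FER3 fell by 0.49 and 0.33 on the log2 scale. Of the 6 iron genes that rose, 3 are given: ORG1, a kinase-like gene, from 36.2 and 35.5 CPM to between 108 and 117, BTS, an iron-binding ubiquitin ligase, from 76.7 and 74.6 to between 122 and 134, and BHLH039, a transcription factor of the iron deficiency response, from 0.662 and 0.157 to between 1.85 and 4.42. Among genes that take up or move iron, YSL3 fell from 45.2 and 46.8 CPM to between 22.1 and 24.7 and YSL2 by 0.74 on the log2 scale, and FRO2, FRO3 and OPT3 were not called.

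Among copper genes CSD1, a copper/zinc superoxide dismutase, rose from 125 and 126 CPM to between 172 and 189, and its chaperone CCS rose by 0.44 on the log2 scale. FSD1, the iron form of that enzyme, fell as given above, and COPT1, COPT6 and CCH, of copper transport, fell by 0.31, 0.68 and 0.55. The other superoxide dismutases CSD2, CSD3, FSD2 and FSD3 were not called (0.16, 0.12, 0.04 and 0.14 on the log2 scale). SPL7, the regulator of the copper response, was not called either. On ABA 9 of the 29 rose and 12 fell.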
